A study of Mus musculus with 4 samples.

Results

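Small leucine-rich proteoglycans are secreted core proteins built from leucine-rich repeats, most of which carry chondroitin, dermatan or keratan sulfate chains. In connective tissue and around muscle fibres they bind fibrillar collagens and set the diameter and spacing of the fibrils. Several also bind TGF-beta ligands, myostatin or growth factor receptors. The 10 genes described here are Fmod, Aspn, Lum, Prelp, Ogn, Bgn, Dcn, Omd, Podn and Ecm2, out of 18193 genes measured, and they are represented by 22 probe sets that carry exactly 1 of these symbols. They were chosen by family name with the shLSD1 against shControl differences of these same arrays already known. Their differences are therefore given as a description, with no p-value for any member.

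The RNA came from mouse C2C12 cells, an immortalised myoblast line that forms myotubes when serum is lowered. Cells of the shLSD1 group (2 arrays) stably carried a plasmid for a short hairpin RNA against LSD1, the histone demethylase encoded by Kdm1a, and cells of the shControl group (2 arrays) carried a non-targeting hairpin plasmid. Both groups were selected with 750 µg/mL hygromycin, had 25 mM glucose throughout, were moved from 10% fetal bovine serum to 2% horse serum, and were harvested 48 hours after induction. The labels name 1 stable selection per hairpin and do not say that the arrays are separate cultures, so knockdown and selection cannot be told apart, and SEs and p-values cover only how far these arrays differ from each other, a spread that may be technical.

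Each array gave a MAS5 signal, a linear intensity per probe set, for 45101 probe sets, with array medians of 67.3 to 69.7. Genes whose mean log2 signal exceeded 6.03, a signal of 65.6, were tested with limma, and a gene was called when its Benjamini-Hochberg adjusted p over all 10788 tested genes was under 0.05. Kdm1a fell to signals of 301 and 367 on the shLSD1 arrays, against 1842 and 1912 on the shControl arrays (log2 difference -2.50, SE 0.11; limma adjusted p = 4.55e-05). Of 12 markers of myoblasts and myotubes, 12 passed the filter, and 7 fell while 1 rose, where 6.82% of all tested genes were called lower and 8.46% higher. The 7 were Myog, Myh3, Acta1, Ckm, Tnnt3, Mymk and Mymx. The 1 that rose was Myf5 (1.28, SE 0.07; limma adjusted p = 8.72e-05), and Myod1, Des, Ttn and Cdh15 were not called. With no intensity trend in the variance, 1 of the 12 fell and 1 rose. The summed signal of these 12 genes was 110999 and 123805 on the shLSD1 arrays and 156417 and 154618 on the shControl arrays. In bulk RNA, fewer cells of a type and less RNA per cell cannot be told apart.

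On chromosome 13, 4 members (Ecm2, Aspn, Omd and Ogn) lie next to each other, and their differences between the groups are unequal in size. The 120 bases before the annotated start of each are shown so that these adjacent genes can be compared. The sequences are RefSeq's on build GRCm38.p6, plus strand, 5′ to 3′, and capitals mark the letters CANNTG (the E-box that myogenic factors bind) or GGAATG (the core letters bound by TEAD factors), searched on both strands.
Ecm2, chr13:49504690-49504809: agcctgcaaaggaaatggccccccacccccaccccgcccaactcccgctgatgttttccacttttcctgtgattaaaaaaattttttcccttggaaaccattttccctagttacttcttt
Aspn, chr13:49544323-49544442: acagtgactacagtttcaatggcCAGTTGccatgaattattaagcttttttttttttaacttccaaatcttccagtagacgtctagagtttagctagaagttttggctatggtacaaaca
Omd, chr13:49582342-49582461: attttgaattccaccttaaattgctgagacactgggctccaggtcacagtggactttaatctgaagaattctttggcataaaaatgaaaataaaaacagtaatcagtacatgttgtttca
Ogn, chr13:49607895-49608014: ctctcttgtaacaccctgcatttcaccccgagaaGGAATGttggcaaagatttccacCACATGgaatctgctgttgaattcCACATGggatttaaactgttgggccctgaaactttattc

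Promoter windows were matched for 8 of the 10 members (9 windows, since Podn has 2). Within the 250 bases before the start, CANNTG stood in 6 of the 9 member windows (Aspn, Bgn, Fmod, Ogn and both of Podn), against 66.2% of all 32851 promoter windows. TATAAA stood in 2 of the 9 (Aspn and Ogn), against 12.4% of all windows, and GGAATG in 1 (Ogn), against 12.6%. The letters CAGACA, which occur in SMAD-binding elements, and TGANTCA, which AP-1 binds, stood in 0 of the 9, against 17.1% and 6.75% of all windows. No 2 marked motifs overlap in the 4 printed windows. The median GC content of the 9 member windows was 51.2%, and that of all windows was 52.4%.

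Most members were lower on the shLSD1 arrays. Of the 10, 8 passed the signal filter, and 6 of these (Fmod, Aspn, Lum, Ogn, Bgn and Dcn) were called lower and 0 higher. Among all tested genes, 6.82% were called lower. Since this contrast was used to choose the members, nothing is read from their count. The 8 tested members had log2 differences between -2.22 and -0.23, with a median of -0.63, and the median of all tested genes was 0.00. In 7 of the 8, both shLSD1 signals lay below both shControl signals, which held for 29.2% of all tested genes. Omd and Podn were tested and not called, and Prelp and Ecm2 lay below the filter on the probe set that represents them.

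**Figure D1:**
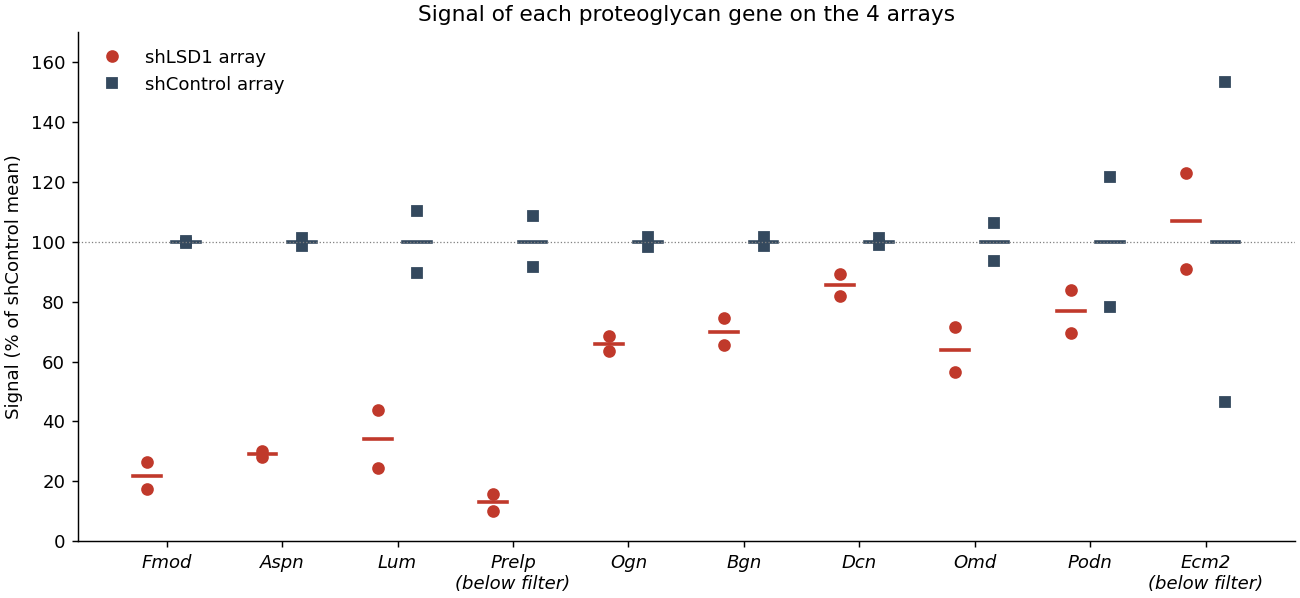
Signal of each of the 10 genes on every array, as a percentage of that gene's mean shControl signal (vertical axis), with the 2 shLSD1 arrays (circles) left of the 2 shControl arrays (squares) and a line at each group mean. For Fmod, Aspn, Lum and Prelp all shLSD1 points lie at or below 43.7%, while the groups overlap for Podn and Ecm2.

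Among the genes of class I, which hold the chondroitin or dermatan sulfate proteoglycans decorin and biglycan, the 3 members differed in size. Aspn encodes asporin, a class I protein that binds collagen and TGF-beta and lacks the glycosaminoglycan attachment site of its relatives. Its signal was 154 and 166 on the shLSD1 arrays, against 554 and 541 on the shControl arrays. The groups are far apart relative to the spread within each, with a log2 difference of -1.78 (SE 0.13), or 29.2% of control. A second Aspn probe set, of the type prone to cross-hybridisation, gave 96.9 and 97.6 on the shLSD1 arrays and 341 and 285 on the shControl arrays, a log2 difference of -1.68 (SE 0.18). The Aspn call held under every alternative run except the stricter signal filter, which left the gene out.

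Bgn encodes biglycan, which binds collagen and the dystroglycan complex at the muscle cell surface and signals through Toll-like receptors. Its signal was 18931 and 16624 on the shLSD1 arrays, against 25787 and 25024 on the shControl arrays. Both shLSD1 values lie below both control values, and the log2 difference was -0.52 (SE 0.06), or 69.8% of control. The other Bgn probe sets gave -0.60 (SE 0.06) and -0.66 (SE 0.07), so all 3 ran the same way. The Bgn call was lost without the intensity trend.

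Dcn encodes decorin, which binds collagen fibrils, TGF-beta and myostatin. Its main probe set read 4619 and 4231 on the shLSD1 arrays and 5237 and 5117 on the shControl arrays. The groups do not overlap, but the difference is small at -0.23 (SE 0.06), or 85.4% of control. Leaving out shControl replicate 1 (-0.21) or shControl replicate 2 (-0.24) ended the Dcn call. So did testing with no signal filter, with no intensity trend, on the mean over its probe sets (-0.41) or at a threshold of 0.01. A second Dcn probe set, below the filter, read 24.6 and 53.0 on the shLSD1 arrays and 41.3 and 70.8 on the shControl arrays, and there the groups overlap.

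Class II includes keratan sulfate proteoglycans, and the 4 class II members described here had negative differences of unequal size. Fmod encodes fibromodulin, which binds type I collagen and lysyl oxidase and directs collagen cross-linking. Its main probe set read 28.5 and 43.1 on the shLSD1 arrays, against 164 and 163 on the shControl arrays. The log2 difference was -2.22 (SE 0.31), or 21.4% of control. Both shLSD1 signals lie under the filter value, so Fmod was tested only because of its control signals and its shLSD1 level is near background. Leaving out shControl replicate 1 (-2.22) or shControl replicate 2 (-2.23) ended the Fmod call, in fits where the lone control array is assumed to vary like the shLSD1 arrays.

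Fmod has 5 further probe sets, all prone to cross-hybridisation and all below the filter. Their log2 differences ran between -4.78 and -0.66. The probe set with the widest gap read 1.43 and 2.33 on the shLSD1 arrays and 65.4 and 38.4 on the shControl arrays, and a fold from signals this close to the floor of 1 is unreliable. In all 6 Fmod probe sets, both shLSD1 signals were below both shControl signals. Averaged over its probe sets, Fmod measured -3.15 with a mean signal below the filter.

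Lum encodes lumican, which limits the lateral growth of collagen fibrils. Its 1 probe set read 58.8 and 33.1 on the shLSD1 arrays and 148 and 121 on the shControl arrays, with no overlap. The log2 difference was -1.60 (SE 0.35), or 32.9% of control. As with Fmod, both shLSD1 signals are under the filter value, so the gene passed only through its control signals. The Lum call ended when shControl replicate 1 (-1.45) or shControl replicate 2 (-1.75) was left out. It also ended with no signal filter, with no intensity trend and at a threshold of 0.01.

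Prelp encodes a proline- and arginine-rich protein that tethers basement membrane heparan sulfate to collagen. The probe set that represents it read 27.2 and 17.1 on the shLSD1 arrays and 157 and 186 on the shControl arrays. This is a log2 difference of -2.98, but its mean signal lay just under the filter (a mean log2 signal of 5.92), so it was not tested. Both shLSD1 signals are near background, and with log2(signal + 32) the difference was -1.91. Prelp was called lower with no signal filter and on the mean over its probe sets (-1.95). A second Prelp probe set, prone to cross-hybridisation, read 341 and 334 on the shLSD1 arrays and 705 and 578 on the shControl arrays. It gave -0.92 (SE 0.12), or 52.8% of control, so both probe sets have the same sign and differ in size. When every probe set was tested on its own, 11 of 13 tested member probe sets were called lower, this one among them. The share was 5.39% of all 19940 tested probe sets. Since the members were chosen with this contrast known, nothing is read from the probe set count either.

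Omd encodes osteomodulin, a keratan sulfate proteoglycan known from bone. Its signal was 116 and 91.5 on the shLSD1 arrays, against 172 and 152 on the shControl arrays. The groups do not overlap, yet the log2 difference of -0.65 (SE 0.22), or 63.6% of control, was not called. It was called only at the looser threshold of 0.1.

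Ogn, the class III member, encodes osteoglycin (mimecan), which is secreted by muscle and bone. Its main probe set read 11736 and 12681 on the shLSD1 arrays and 18830 and 18200 on the shControl arrays. The log2 difference was -0.60 (SE 0.05), or 65.9% of control, and the groups lie well apart. The second Ogn probe set gave -0.64 (SE 0.07). Ogn was called lower in all 16 alternatives, which draw on these same arrays and so add no independent support.

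Podn and Ecm2 did not show a clear difference. Podn encodes podocan, a class V member, and read 150 and 181 on the shLSD1 arrays against 262 and 168 on the shControl arrays. The groups overlap, and the log2 difference of -0.35 (SE 0.24) was -0.03 without shControl replicate 1 and -0.67 without shControl replicate 2. Ecm2, which encodes a matrix protein with leucine-rich repeats related to the class I proteins, stayed below the filter on both probe sets. One read 23.2 and 31.4 on the shLSD1 arrays and 39.2 and 11.9 on the shControl arrays, and the other 27.9 and 27.5 on the shLSD1 arrays and 9.55 and 19.3 on the shControl arrays. Their log2 differences were 0.32 and 1.03, the only 2 positive ones among the 22 probe sets, and at these signals no direction is given for the gene.

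**Figure D2:**
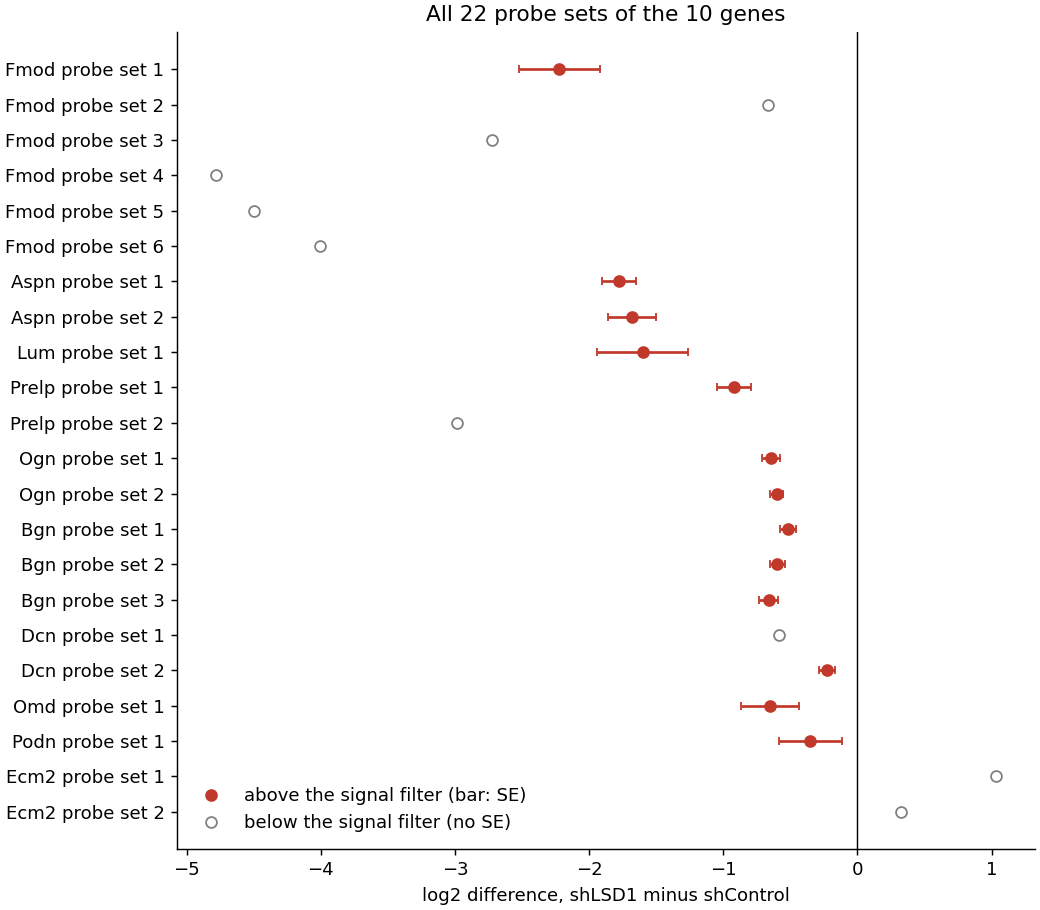
Log2 difference (horizontal axis, shLSD1 minus shControl) of all 22 probe sets of the 10 genes. Filled points are the 13 probe sets above the signal filter, with bars of 1 SE, and open points are the 9 below it. Of the 22, 20 lie left of 0, and the points of Bgn and Ogn lie close together while those of Fmod and Prelp are spread out.

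Over all 22 probe sets, tested or not, 18 had both shLSD1 signals below both shControl signals, against 23.9% of the 34945 probe sets with a single symbol. The probe sets of a gene measure the same transcripts and are not independent. The members were also chosen with this contrast known, so nothing is read from this count.

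**Figure D3:**
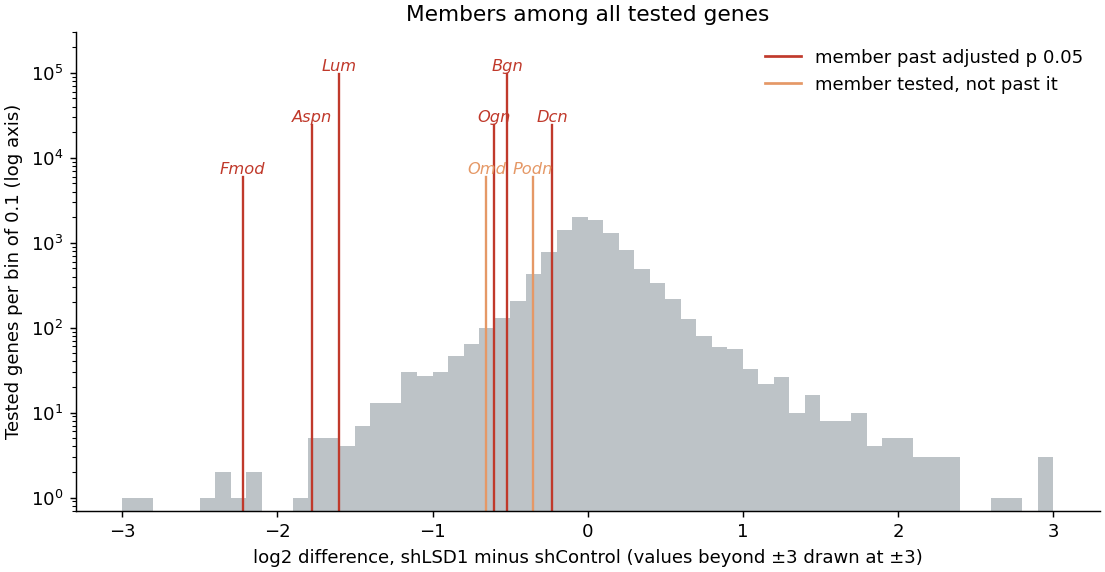
Histogram of the log2 difference (horizontal axis, shLSD1 minus shControl) of all 10788 tested genes, on a log count axis, with a line for each of the 8 tested members. The members lie between -2.22 and -0.23, all left of the centre of the histogram.

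Of the 10 genes, 8 sit in 3 runs, where they neighbour each other in gene order. Fmod and Prelp lie side by side on chromosome 1, Dcn and Lum on chromosome 10, and Ecm2, Aspn, Omd and Ogn on chromosome 13, while Bgn is on chromosome X and Podn on chromosome 4. Neighbours within a run differed in size. On chromosome 10, Lum measured -1.60 and Dcn -0.23, with SEs of 0.35 and 0.06. On chromosome 13, Aspn measured -1.78 (SE 0.13), Omd -0.65 (SE 0.22) and Ogn -0.60 (SE 0.05), and Ecm2 was below the filter.

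The nearest measured genes that are no members numbered 10, of which 6 were tested, and 0 of these were called in either direction. Among all tested genes, 6.82% were called lower and 8.46% higher, so nothing is read from a count this small. Next to the chromosome 13 run, Cenpp measured 0.14 (SE 0.14; limma adjusted p = 0.545) and Nol8 0.04 (SE 0.11; limma adjusted p = 0.842). Btg2, next to Fmod, measured 0.16 (SE 0.18; limma adjusted p = 0.625), and Btg1, next to Dcn, 0.14 (SE 0.07; limma adjusted p = 0.253). Haus7, beside Bgn, measured -0.16 (SE 0.08; limma adjusted p = 0.220), and Scp2, beside Podn, -0.13 (SE 0.06; limma adjusted p = 0.186). Optc, Kera, Atp2b3 and Slc1a7 were below the filter. Optc, beside Prelp, and Kera, beside Lum, are themselves genes of this family outside the members described. No difference between members and neighbours was tested.

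**Figure D4:**
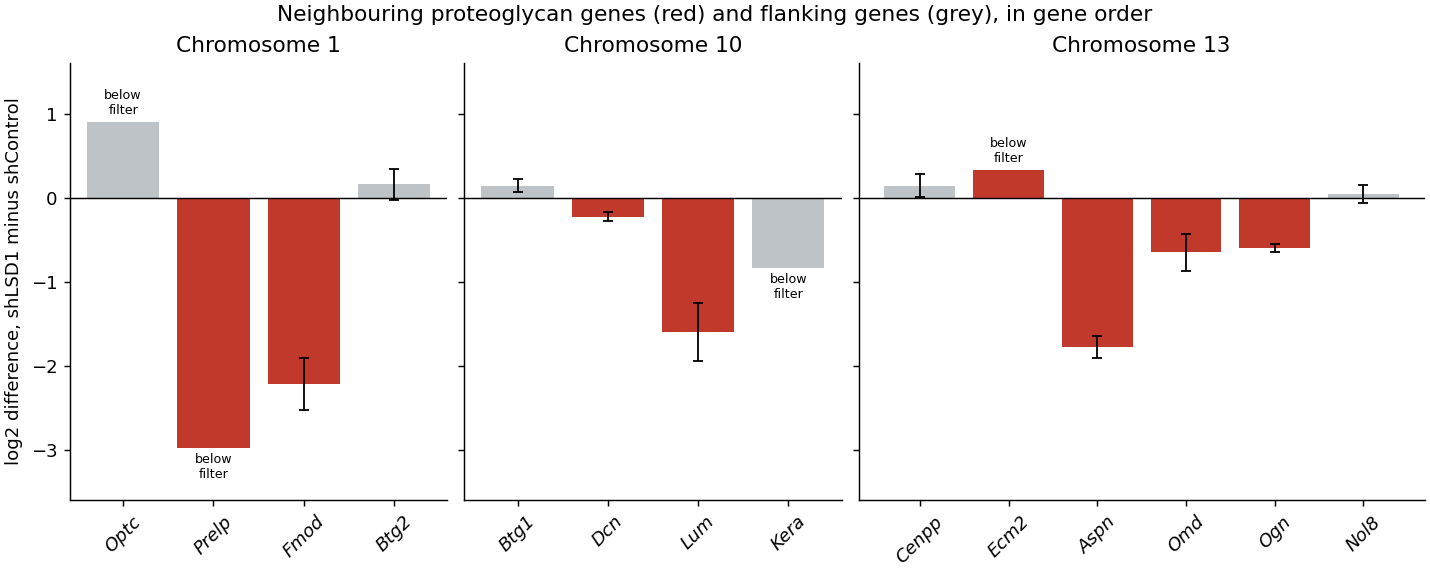
Log2 difference (vertical axis, shLSD1 minus shControl; bars of 1 SE where tested) of the members (red) and the nearest measured genes on each side (grey), in gene order on chromosomes 1, 10 and 13. Within each run the members differ in size, and the tested flanking genes lie between 0.04 and 0.16. Optc and Kera, in grey, are other genes of the family.

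Of the remaining family members, 6 of 8 were measured and 1 passed the filter. That was Chadl, a chondroadherin-like gene, with signals of 90.8 and 51.7 on the shLSD1 arrays and 86.9 and 76.3 on the shControl arrays (log2 difference -0.25; limma adjusted p = 0.674). Kera, Epyc, Optc, Chad and Nyx, whose proteins are known from cornea, cartilage and eye, were below the filter, with signals between 1.58 and 55.6 on all 4 arrays.

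Of 26 tested genes that build the sugar chains, 3 fell and 0 rose, where 6.82% of all tested genes were called lower and 8.46% higher. Of 6 tested genes for the linker that joins chain to core protein, 0 were called (limma), 1 had an unadjusted p under 0.05, and the median was -0.14. For chondroitin and dermatan sulfate, 2 of 14 fell and 0 rose (median 0.03). These were the chain polymerase gene Chsy1 (-0.37, SE 0.07; limma adjusted p = 0.0109) and the sulfotransferase gene Chst13 (-1.05, SE 0.25; limma adjusted p = 0.0286). For keratan sulfate, 1 of 6 fell and 0 rose (median 0.06), the galactosyltransferase gene B4galt1 (-0.24, SE 0.06; limma adjusted p = 0.0310). All 3 calls were lost when either shControl array was left out (-0.34 and -0.39 for Chsy1, -0.94 and -1.16 for Chst13, -0.23 and -0.25 for B4galt1), and that of B4galt1 also without shLSD1 replicate 1 (-0.21). Chst13 measured -0.66 without shLSD1 replicate 1 and -1.44 without shLSD1 replicate 2.

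Among genes of the matrix that these proteins bind, 14 collagens and other partners were tested, and 11 fell and 0 rose (median -0.40), where 6.82% of all tested genes were called lower and 8.46% higher. Col12a1, which encodes a fibril-associated collagen, fell by 1.33 (SE 0.06; limma adjusted p = 4.55e-05), the fibril-nucleating Col5a1 by 0.83 (SE 0.05; limma adjusted p = 0.000116), the thrombospondin gene Thbs1 by 0.86 and the lysyl oxidase gene Lox, whose product fibromodulin binds, by 0.41. The count that fell was 3 with no intensity trend, 5 without shControl replicate 1, 6 without shControl replicate 2 and 8 on the mean over a gene's probe sets. Among 12 genes for proteases and their inhibitors, 3 fell and 0 rose (median -0.12), namely the gelatinase gene Mmp2 (-0.99, SE 0.09; limma adjusted p = 0.000719) and the aggrecanase-family genes Adamts5 (-0.75) and Adamts1 (-0.80). The protease counts changed when either shLSD1 array was left out. At a threshold of 0.1 they were 4 lower and 1 higher.

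For the counts of ligands and receptors, the shares of all tested genes to compare are 6.82% called lower and 8.46% higher. Of 9 tested ligands and matricellular partners of the family, 4 fell and 0 rose (median -0.40). They were Ccn2, whose protein decorin binds, with signals of 1613 and 2351 on the shLSD1 arrays and 6167 and 6364 on the shControl arrays (-1.69, SE 0.15; limma adjusted p = 0.000719), Ccn4 (-0.68), Ccn1 (-0.54) and Tgfb3 (-0.39). Tgfb3 lost its call without shControl replicate 2 (-0.30), Ccn1 with the mean of its probe sets (-0.27), and without shLSD1 replicate 1 the number that fell was 7. Receptors went both ways, with 4 of 14 higher and 3 lower (median -0.13). The hepatocyte growth factor receptor gene Met rose by 0.58 (SE 0.07; limma adjusted p = 0.00247), Tlr4, a receptor for biglycan, by 0.47, and the hyaluronan receptor gene Cd44 by 0.29, while Egfr, a receptor bound by decorin, fell by 0.80. Calls were lost for Tlr4 without shControl replicate 2 (0.42), for Egfr without shControl replicate 1 (-0.72), and for Cd44 when either control array was left out (0.30 and 0.27). The receptor counts were 2 higher and 0 lower without shControl replicate 1, 1 and 1 without shControl replicate 2, and 1 and 0 both with no intensity trend and on the mean over a gene's probe sets.

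The shares of all tested genes called were 6.82% lower and 8.46% higher. Over the 8 lists, 76 genes were tested, of which 24 fell and 4 rose, with a median of -0.23. Without shControl replicate 1 the counts were 12 and 2, without shControl replicate 2 they were 13 and 1, and without shLSD1 replicate 2 they were 26 and 10. With no intensity trend the calls of Chsy1, Chst13, B4galt1, Lox, Tgfb3, Cd44, Tlr4 and Egfr were lost, and on the mean over a gene's probe sets those of Chst13, Adamts5, Cd44 (0.03), Tlr4 and Egfr.

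**Figure D5:**
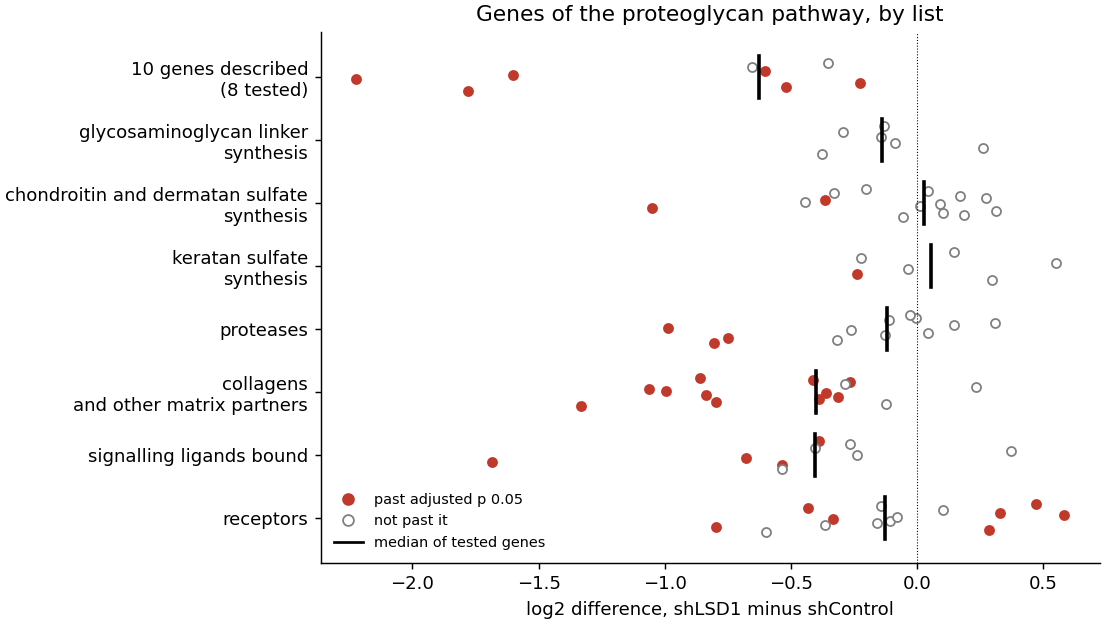
Log2 difference (horizontal axis, shLSD1 minus shControl) of the 8 tested members and of the tested genes in 7 of the 8 pathway lists, 1 point per gene, filled where the limma adjusted p was under 0.05, with a line at each median. Filled points number 11 of 14 among collagens and other matrix partners and 3 of 26 among the genes for chain synthesis.

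Markers of other connective tissue cells were mostly below the filter. Of 11 measured fibroblast markers, 6 were below it, 3 of the other 5 fell and 1 rose. Among all tested genes, 6.82% were called lower and 8.46% higher. The summed signal of the 11 markers was 3945 and 4029 on the shLSD1 arrays, against 6155 and 6472 on the shControl arrays. Most of the gap between these sums lies in Postn, which encodes the matrix protein periostin and read 1521 and 2141 on the shLSD1 arrays and 4075 and 4350 on the shControl arrays. Without Postn the sum was 2424 and 1888 on the shLSD1 arrays and 2080 and 2122 on the shControl arrays, and the groups overlap. Postn fell by 1.22 (SE 0.14; limma adjusted p = 0.00167) and Fap by 0.99, a call lost without shControl replicate 1 (-0.91), while Pdgfra, a surface marker of muscle fibroblasts, measured 0.37 (limma adjusted p = 0.226). Dpt, which encodes the decorin-binding protein dermatopontin, read 8.42 and 8.39 on the shLSD1 arrays and 83.3 and 73.2 on the shControl arrays, below the filter in its mean. The other called marker that fell was Tcf7l2 (-0.55, SE 0.15; limma adjusted p = 0.0439), a call lost at a threshold of 0.01. It read 298 and 236 on the shLSD1 arrays and 394 and 385 on the shControl arrays. The fibroblast count that fell was 1 without shControl replicate 1. With no intensity trend 2 fell and 0 rose, as on the mean over a gene's probe sets. The marker that rose was Cd34 (0.44; limma adjusted p = 0.0308), a call that ended without shControl replicate 1 (0.44), shControl replicate 2 (0.45) or shLSD1 replicate 1 (0.29). The Cd34 call also ended with no signal filter, with no intensity trend, on the mean over a gene's probe sets and at a threshold of 0.01.

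Of 6 measured tendon markers, 4 were below the filter (Tnmd, Mkx, Thbs4 and Kera) and 0 of the other 2 were called (limma; 1 had an unadjusted p under 0.05), with sums of 9556 and 8015 on the shLSD1 arrays and 9188 and 8763 on the shControl arrays. Most of each sum is Egr1, an early response gene that many cell types express, and without it the sums were 800.1 and 648 on the shLSD1 arrays and 899 and 975 on the shControl arrays. Scx, which encodes the tendon factor scleraxis, read 747 and 603 on the shLSD1 arrays and 818 and 913 on the shControl arrays (log2 difference -0.36; limma adjusted p = 0.0832). Of 10 measured bone and cartilage markers, 7 were below the filter and 0 of 3 were called (limma; 1 with an unadjusted p under 0.05), with sums of 945 and 866 on the shLSD1 arrays and 696 and 741 on the shControl arrays. Most of the gap between these sums lies in Sox9 (log2 difference 0.49; limma adjusted p = 0.0605). Without Sox9 the sums were 361 and 373 on the shLSD1 arrays and 355 and 315 on the shControl arrays. Of 6 measured adipocyte markers, 5 were below the filter and the other was not called, with sums of 178 and 158 on the shLSD1 arrays and 165 and 191 on the shControl arrays. The part of any of these cell types in the members' differences was not tested.

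By the distance between mean-centred log2 signals over the 4 arrays, the 3 tested genes nearest to Fmod were Kdm1a (distance 0.354 log2 units), Ccn2 (0.539) and the perinatal myosin gene Myh8 (0.559). Myh8 read 132 and 118 on the shLSD1 arrays and 592 and 514 on the shControl arrays. With 4 arrays in 2 groups, this distance reflects both the size of a gene's difference and the spread within each group. Ccn2 (log2 difference -1.69) thus ranked nearer to Fmod (-2.22) than Myh8 (-2.15) did.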

How the data were processed

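Per the submitters' processing notes, the deposited intensity values are MAS5 signals from Affymetrix Expression Console, on a linear scale and scaled by the authors with 1 factor per array (the mean after trimming 2% at each end is 500.003 on all 4 arrays). The sources used here do not give their versions. Per the labels' protocols, 250 ng of total RNA was labelled for 3' arrays.

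Signals under 1 were set to 1 and log2 transformed. Of 45101 probe sets, 34945 had 1 gene symbol, 932 several and 9160 none, and 64 controls were left out. Symbols were checked through gene IDs against a GRCm38.p6 gene table, which was otherwise used only for gene order, and 0 changed. Each gene was represented by 1 probe set (not of the _x_at or _s_at type where another existed, then the brightest), and genes whose mean log2 signal passed the median over all probe sets were tested together, across all genes, in a two-sided limma 3.58.1 fit with an intensity trend under R 4.3.3 (total degrees of freedom 7.46). Figures used matplotlib 3.10.9. On simulated data for 10788 genes, 65 of 66 changes of 2 on the log2 scale, 57 of 67 of 1 and 32 of 67 of 0.5 were recovered, with 9 false calls among 10588. The simulated noise followed the variance model that the fit itself assumes. These counts therefore check that the code works and do not measure how the fit performs on the deposited arrays.

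The members, lists and motifs were chosen with earlier results of these data known. Named genes are all members, Kdm1a, up to 4 called genes per pathway list by smallest adjusted p, other measured family members, the nearest measured neighbours and the 3 genes nearest in pattern to the member with the largest tested difference. Marker genes with values are named from the marker lists. MAS5 detection calls were not used here.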

Additional observations from a re-analysis of the deposited data

How the results depend on the processing

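Across the alternatives run, no member changed direction past the threshold, and the count of members called higher was 0 in each. The count called lower, 6 as reported, was 3 without the intensity trend and 3 with the stricter filter, which kept 3 members, and ranged between 3 and 6 when 1 array was left out. Aspn, Ogn and Bgn kept their calls without either shControl array, and Lum and Dcn lost theirs at a threshold of 0.01. The alternatives draw on the arrays and the contrast used to choose the members, so a kept call adds no support. Of all tested genes, 736 were called lower and 913 higher. These counts were 407 and 493 with the mean of probe sets, 252 and 362 without the intensity trend and 329 and 386 at a threshold of 0.01, and at 0.1 the lower count was 1108. With 1 array left out they ranged between 203 and 1001 lower and between 295 and 1101 higher. Of the pathway genes, 24 lower and 4 higher as reported, 15 and 1 were called with the mean of probe sets and 9 and 1 without the intensity trend, at 0.1 the higher count was 7, and with 1 array left out the ranges were 12 to 30 lower and 1 to 10 higher. The cause was not tested, apart from the fewer arrays or genes that the settings themselves leave. Same-numbered arrays had a correlation of 0.01 between their deviations. With 2 arrays per group, this value cannot show whether the replicate numbers pair the arrays. With the replicate block, 6 members, 886 genes lower and 1113 genes higher were called. MAS5 signals near background limit what can be said of Fmod, Lum, Prelp and Ecm2.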
